A study of Mus musculus with 14 samples.

Results

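The effect of added aspartate on the transcriptome of control 4T1 spheroids was measured in 7 of the 14 libraries of the series: 4 from spheroids cultured with aspartate (ASP shSCR, replicates 1 to 4) and 3 from spheroids cultured without it (NoASP shSCR, replicates 2, 3 and 4), taken by their labels. 4T1 is a mouse triple-negative mammary carcinoma line. Both groups grew as spheroids in lung-like medium (LLM) for 5 days, with 700 µM aspartate added for the ASP group alone, and both carried the same scrambled short hairpin RNA (shSCR) delivered by lentivirus, so that hairpin and selection are shared. The cells were a selected population rather than a single clone, and no group without a hairpin is in the comparison. RNA came from the cytosolic supernatant of detergent lysates prepared in the presence of cycloheximide and was made into stranded mRNA libraries. NoASP shSCR replicate 1 was not analysed here. The remaining 7 libraries carry a hairpin against *Grin2d* or *Dhps*, all with aspartate, and enter only the shared estimate of the spread.

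Aspartate is a nonessential amino acid that feeds nucleotide and protein synthesis, and it can also act outside the cell as an agonist of the N-methyl-D-aspartate (NMDA) receptor, a ligand-gated calcium channel. Calcium entry through this receptor can activate calmodulin-dependent kinases and the transcription factor CREB. In the study's model, CREB raises the expression of DOHH. DHPS and DOHH convert a lysine of the translation factor eIF5A to hypusine, and the output is translation of messages of the TGF-β and collagen programmes. The paper also reports changes in messages: with aspartate, *Dohh* but not *Dhps* rose in spheroids, as did collagen I expression. From total RNA sequencing of spheroids with and without aspartate, it further reports that gene sets related to translation were enriched with aspartate. That result came from a ranked gene-set analysis, which was not repeated here. The comparison therefore asks how far the abundance of cytosolic messages, as distinct from their translation, differed with aspartate.

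The 7 libraries held 12731123 to 23231378 counts, with 16352 to 17078 of 19525 genes detected and 4.53% to 6.15% of counts on mitochondrial transcripts. Markers of mammary carcinoma cells were abundant: *Epcam* had 8278 to 14753 counts and *Krt8* 21193 to 38815. Of the leukocyte markers, *Ptprc* had 1 to 10 counts, *S100a8* 1 to 16, and *Lyz2* was at 0 in every library. *Cd68*, also on the leukocyte list, had 126 to 231. The endothelial gene *Cdh5* and the fibroblast gene *Dcn* had at most 1 count, although *Pdgfra*, also on the fibroblast list, had 417 to 730. Both replicate 2 libraries stood apart from the others. On the first principal component, which held 51.2% of the variance over genes averaging 5 or more CPM (counts scaled for depth with TMM), they lay at 22.1 (ASP) and 15.2 (NoASP), and the other 5 libraries lay between -15.7 and -3.02. The genes with the largest loadings toward them were *Ankrd37*, *Bnip3* and *Ero1a*, which respond to low oxygen.

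No gene passed the test for a difference between ASP and NoASP spheroids. In edgeR's quasi-likelihood fit of all 14 libraries with group as the only term, 0 of 19525 genes (0%) had a Benjamini-Hochberg adjusted p under 0.05 and the smallest adjusted p was 1. An unadjusted p under 0.05 was reached by 424 genes in edgeR and by 214 in DESeq2, which also called 0. Among the 10233 genes that averaged 5 CPM or more over the 7 libraries, 58 (0.567%) had an unadjusted p under 0.05, 29 of them higher and 29 lower with aspartate. Evenly spread p-values would give 511.6, so the unblocked fit found fewer, and its 0 calls do not show that no gene differed. Every ASP library lay above every NoASP library for 98 of the 10233 genes (0.958%) and below for 95 (0.928%). If the 7 libraries were exchangeable, each of these orders would be 1 of 35 equally likely splits, a larger share than either. These shares alone therefore do not show a response. The median difference of the 98 and the 95 was 0.16 and 0.17 on the log2 scale. Fewer cells of a kind and less RNA per cell cannot be told apart in these bulk libraries.

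The fit also bounded how large a change each gene could have had. The 95% interval of the log2 fold change lay wholly inside 1.5-fold in either direction for 9693 of the 10233 genes (94.7%) and inside 2-fold for 10179 (99.5%). Over all 19525 genes tested, 9950 intervals lay inside 1.5-fold and 11554 inside 2-fold. The precision depended on the level of the gene. The median half-width of the interval corresponded to 1.16-fold for genes of 100 CPM and over, to 1.18-fold for genes of 20 to 100 CPM, to 1.253-fold for genes of 5 to 20 CPM and to 1.54-fold for genes of 1 to 5 CPM. At 1 to 5 CPM, 14.3% of 1794 genes had an interval inside 1.5-fold, and below 1 CPM 0 of 7498 did, so a change of that size was not detectable there. The fitted changes themselves were small: the median absolute log2 fold change was 0.04 at 100 CPM and over, and 95% of those genes lay within 0.16.

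**Figure D1:**
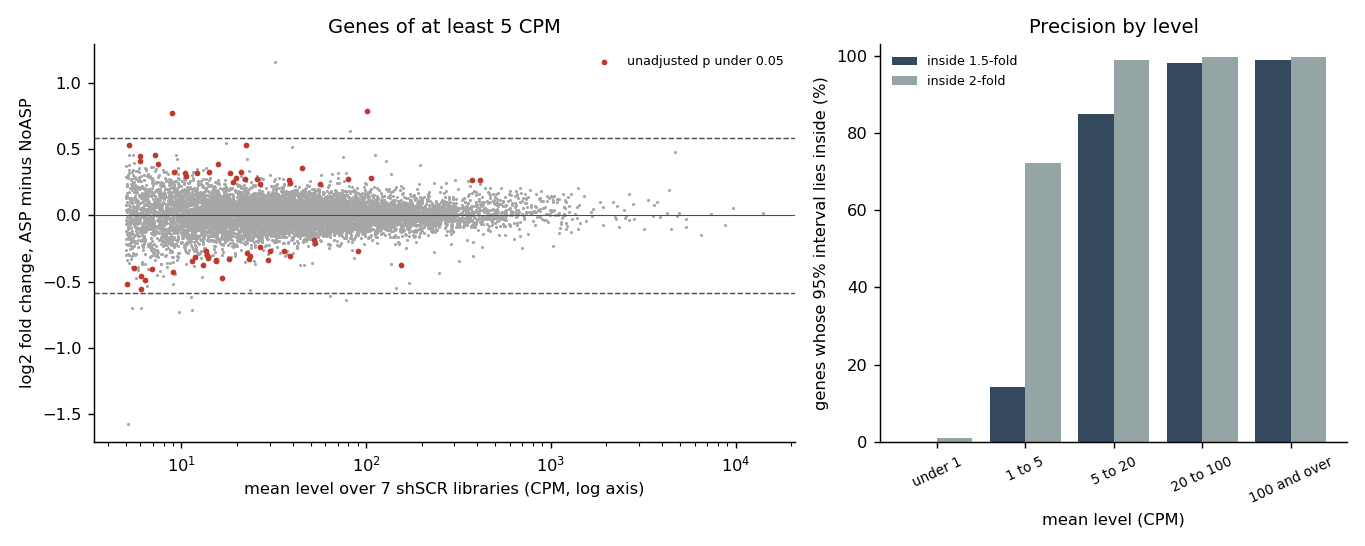
Left, log2 fold change (ASP minus NoASP) of each of the 10233 genes averaging 5 CPM or more against its mean level in CPM on a log axis, with dashed lines at 1.5-fold and the 58 genes with an unadjusted p under 0.05 in red. Right, the share of genes in each range of mean CPM whose 95% interval lay inside 1.5-fold (dark bars) or 2-fold (light bars): inside 1.5-fold it rises from 0% below 1 CPM to 98.8% at 100 CPM and over.

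Departures from the group mean correlated between same-numbered ASP and NoASP libraries, most for number 2. The comparison was therefore also made within the pairs 2, 3 and 4, although that check cannot settle the pairing of 3 and 4. Over the 6 paired libraries and the 10233 genes, the replicate number took 63.3% of the sum of squares of log2 CPM, aspartate 11.7% and the rest 24.9%. These shares have 2, 1 and 2 degrees of freedom, so for each degree of freedom aspartate took about as much as the rest. The 3 ratios of ASP to NoASP shared little from pair to pair. Across the 9784 of these genes that are not predicted models or pseudogenes, Pearson's r between the log2 ratios was -0.08 for pairs 2 and 3, 0.20 for pairs 2 and 4 and -0.12 for pairs 3 and 4, a description across genes, which are not independent replicates. Over all 10233 genes it was -0.13, 0.07 and -0.01. The median absolute log2 ratio was 0.09, 0.10 and 0.11 in pairs 2, 3 and 4. Of the 10233 genes, 2272 were higher with aspartate in both of pairs 3 and 4 and 2430 lower. In all 3 pairs, 1265 (12.4%) were higher with aspartate and 1329 (13%) lower. Signs falling at random in each pair would give shares close to these, so the shares alone do not show a shared response. Just 1 gene kept its direction at 1.5-fold or more in every pair, the predicted gene *Gm49388*, which was lower, and 0 did so at 2-fold.

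**Figure D2:**
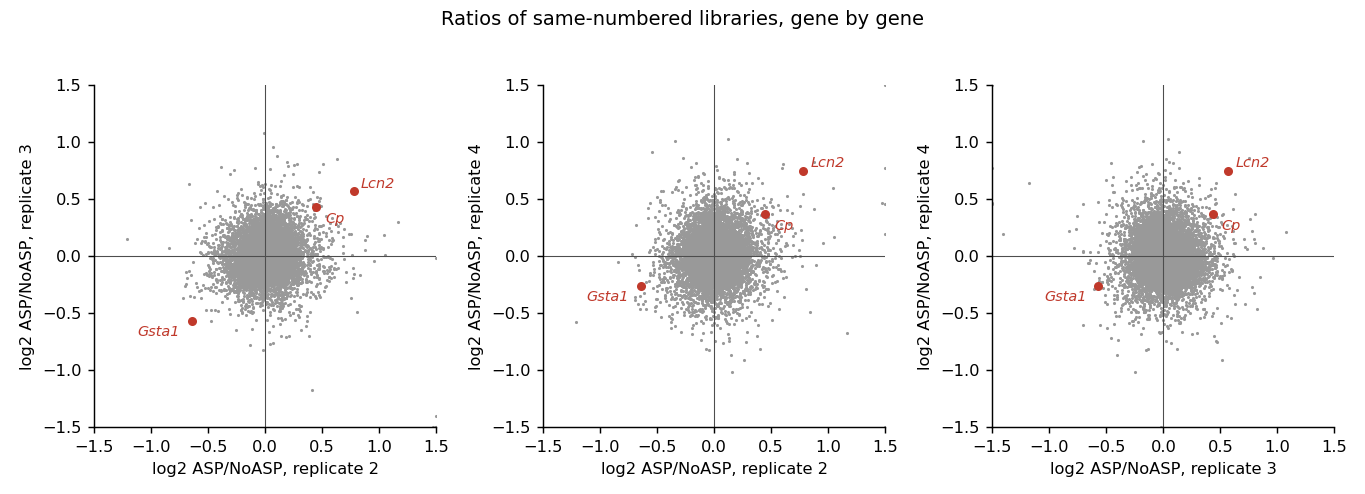
Log2 ratio of ASP to NoASP CPM in one same-numbered pair against another, 1 point for each of 9784 genes, with *Lcn2*, *Cp* and *Gsta1* in red. The 5 or 6 genes of each panel past 1.5 on either axis are drawn at the edge; the clouds are round about 0, while *Lcn2* and *Cp* lie in the upper right and *Gsta1* in the lower left of all 3 panels.

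In fits with a replicate block within the pairs, the calls shared by most tools were 2 genes, *Lcn2* and *Cp*. *Lcn2* encodes the secreted iron-siderophore binding protein lipocalin 2, and *Cp* encodes ceruloplasmin, a copper-carrying ferroxidase. Both were higher with aspartate. The count of calls depended strongly on how the blocked fit estimated the spread. In edgeR over all 14 libraries the block called 2 of 19525 genes (0.0102%), *Gm20458* (0 counts in 4 of the 7 libraries and up to 90 in the others) and *Gm22317* (186 counts in NoASP replicate 3 and at most 1 elsewhere), both predicted genes. Within the 6 paired libraries it called 67 (0.343%), 43 higher and 24 lower, but in that fit the spread of each gene was replaced by the common trend, and 13 of the 35 calls on named genes of at least 5 CPM did not keep one direction over the 3 pairs. *Lars2*, a mitochondrial leucyl-tRNA synthetase, was among them with log2 ratios of 1.73, -1.70 and 0.77. Filtering out genes with low counts first let each gene's own spread count in part. It has 2 residual degrees of freedom, while the median total in that fit was 17.7, most of it borrowed across genes. The same blocked fit then called 2 of 12838 genes (0.0156%), *Lcn2* (adjusted p = 0.00032 in edgeR) and *Cp* (adjusted p = 0.031). Within the pairs, the limma voom fit called the same 2 genes, DESeq2 with the block called these and *Gsta1*, and limma trend added *Csf3* and 1 predicted gene. DESeq2 with the block over all 14 libraries called 48 genes, 0 of them at 5 CPM or more, so neither *Lcn2* nor *Cp*. Their unadjusted p in that DESeq2 fit was 0.059 and 0.0070. These 4 fits within the pairs were added after the data were seen, as was DESeq2 with the block over all 14 libraries.

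*Lcn2* (ENSMUSG00000026822) was measured at 77.5, 187, 51.0 and 73.1 CPM in ASP replicates 1, 2, 3 and 4 and at 109, 34.4 and 43.4 CPM in NoASP replicates 2, 3 and 4. The groups overlap because replicate 2 was the highest library of both, and within each pair the ASP library was higher, by 0.78, 0.57 and 0.75 on the log2 scale. The log2 fold change was 0.64 (95% interval -0.04 to 1.32, adjusted p = 1 in edgeR) without the block and 0.70 (0.55 to 0.86) in the filtered blocked fit. With both replicate 2 libraries left out and no block it was 0.79 (0.47 to 1.10), with an adjusted p = 0.54 in edgeR. Without ASP replicate 2 alone it was 0.11, and without NoASP replicate 2 alone 1.32.

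*Cp* had 113, 236, 120 and 123 CPM in the ASP libraries and 173, 89.1 and 95.4 CPM in the NoASP libraries. The ratios were 0.45, 0.43 and 0.37 in pairs 2, 3 and 4, close to one another, while the groups overlapped through NoASP replicate 2. The log2 fold change was 0.31 (-0.13 to 0.76) without and 0.42 (0.28 to 0.55) with the block after filtering. Leaving out ASP replicate 2 alone brought the unblocked value to -0.00, and NoASP replicate 2 alone to 0.68. *Gsta1*, a glutathione S-transferase, went the other way, at 36.3, 27.9, 72.4 and 73.0 CPM with aspartate against 43.6, 108 and 87.7 without. Its log2 ratios were -0.64, -0.57 and -0.26, and its adjusted p within the pairs was 0.052 in edgeR after filtering, 0.15 in voom, 0.032 in DESeq2 and 0.0088 in limma trend. *Gsta1* has a closely similar paralog, so its counts may hold reads of both.

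The regions before the start of these genes are shown because *Lcn2*, *Cp* and *Gsta1* were called in at least 1 added fit with the block, beside *Cxcl1*, a neutrophil chemokine of the same NF-κB-responsive group as *Lcn2*, and *Dohh*, the enzyme that the study places under CREB. Each line gives the 250 bases before the annotated start from RefSeq (build GRCm38.p6, which is not the build of the counts), 5′ to 3′ on the strand of the gene, with matches to the NF-κB motif in capitals. They lie at chr2:32387740-32387989 (minus strand), chr3:19956804-19957053 (plus strand), chr9:78230419-78230668 (plus strand), chr5:90890995-90891244 (plus strand) and chr10:81384184-81384433 (plus strand), the lower-coordinate of 2 starts being shown for *Cp*.
Lcn2: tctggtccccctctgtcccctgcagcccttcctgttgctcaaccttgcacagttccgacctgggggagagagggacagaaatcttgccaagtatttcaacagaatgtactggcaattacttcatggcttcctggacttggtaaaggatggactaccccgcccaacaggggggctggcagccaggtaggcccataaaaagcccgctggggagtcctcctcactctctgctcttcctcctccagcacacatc
Cp: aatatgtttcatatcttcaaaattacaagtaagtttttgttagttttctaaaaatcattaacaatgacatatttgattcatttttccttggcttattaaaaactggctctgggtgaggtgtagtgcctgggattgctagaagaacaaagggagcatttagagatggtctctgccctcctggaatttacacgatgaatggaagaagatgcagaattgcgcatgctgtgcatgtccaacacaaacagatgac
Gsta1: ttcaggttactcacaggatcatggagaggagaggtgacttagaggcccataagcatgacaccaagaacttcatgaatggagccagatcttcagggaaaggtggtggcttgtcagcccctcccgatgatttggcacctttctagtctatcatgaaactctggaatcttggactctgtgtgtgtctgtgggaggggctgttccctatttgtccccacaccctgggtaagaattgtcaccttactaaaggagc
Cxcl1: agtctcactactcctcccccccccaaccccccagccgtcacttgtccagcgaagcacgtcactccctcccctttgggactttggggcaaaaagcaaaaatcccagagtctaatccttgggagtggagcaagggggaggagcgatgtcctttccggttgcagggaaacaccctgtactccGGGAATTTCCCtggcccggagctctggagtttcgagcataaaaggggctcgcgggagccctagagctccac
Dohh: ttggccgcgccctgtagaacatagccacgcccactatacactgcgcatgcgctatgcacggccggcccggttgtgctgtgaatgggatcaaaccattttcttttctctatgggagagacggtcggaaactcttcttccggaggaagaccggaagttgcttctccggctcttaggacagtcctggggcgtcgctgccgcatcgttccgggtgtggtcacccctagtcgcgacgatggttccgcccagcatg
Both strands were searched. The NF-κB motif matched at 2 overlapping places in *Cxcl1* and in none of the other 4 windows, and was found in 7.25% of all 32851 promoters in the table over the same 250 bases. The full cyclic AMP response element TGACGTCA, the site of CREB, was in none of the 5 windows and in 1.55% of all promoters. Its half-site TGACG, which every full site contains, was in *Cxcl1* alone of the 5, at 2 places, and in 17.8% of all. The antioxidant response element TGACNNNGC was in none of the 5 and in 10.2% of all. These matches are letters in a window and not sites of binding.

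Other named genes kept one direction in all pairs without being called after filtering. Among those higher with aspartate, *Vcam1*, an adhesion molecule, had log2 ratios of 0.47, 0.44 and 0.34, and *Samsn1*, an adaptor protein, 0.43, 0.37 and 0.51. *Samsn1* was at 8.53, 9.24, 7.99 and 6.99 CPM with aspartate and at 6.85, 6.17 and 4.89 CPM without, so the groups did not overlap (unadjusted p = 0.018, adjusted p = 1 in edgeR). *Bahcc1* (0.51, 0.80 and 0.37), *Trim12c* (0.33, 0.46 and 0.64), *Shisa2* (0.33, 0.40 and 0.42) and *Nek8* (0.35, 0.39 and 0.32) complete the 8 largest by their smallest ratio. This ranking held only genes of at least 5 CPM that are not predicted models. The 8 at the other end were *Spryd4*, *Fendrr*, *Wdr62*, *Tmem41a*, *Fastkd2*, *Pde1b*, *Rrp12* and *Snhg4*, whose smallest ratios ran from -0.37 to -0.27. *Wdr62* serves the mitotic spindle, *Fastkd2* mitochondrial RNA, and *Rrp12* the export of ribosomal subunits. None of these 14 passed the adjusted threshold in the filtered blocked fit, although *Vcam1* (adjusted p = 0.00040 in edgeR) and *Bahcc1* (adjusted p = 0.011) passed in the unfiltered paired one.

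The next genes were ranked among those of at least 5 CPM that are not predicted models. The 5 smallest unadjusted p-values in each direction of the unblocked edgeR fit belonged to *Samsn1* and 9 other genes. All but *mt-Nd6* had a fitted change under 1.5-fold. On the lower side *Serpinb5*, the epithelial serpin maspin, was at 20.9, 17.5, 22.3 and 23.2 CPM with aspartate and 25.9, 27.3 and 25.6 without (unadjusted p = 0.010, log2 fold change -0.33), and *Krt14*, a basal keratin, had a log2 fold change of -0.27 (-0.47 to -0.06). *Zfp707*, *Zswim1* and *Zfp738*, which encode zinc-finger proteins, had -0.34, -0.38 and -0.34. On the higher side *Susd1* had 0.39 (0.09 to 0.68), *Serpine2*, a protease inhibitor, 0.28 (0.05 to 0.52) and *Ldhd*, a mitochondrial lactate dehydrogenase, 0.45 (0.07 to 0.82). *mt-Nd6*, the subunit of complex I encoded on the light strand of mitochondrial DNA, had 0.77 but a ratio of -0.27 in pair 2. The adjusted p of all of these was 1.

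**Figure D3:**
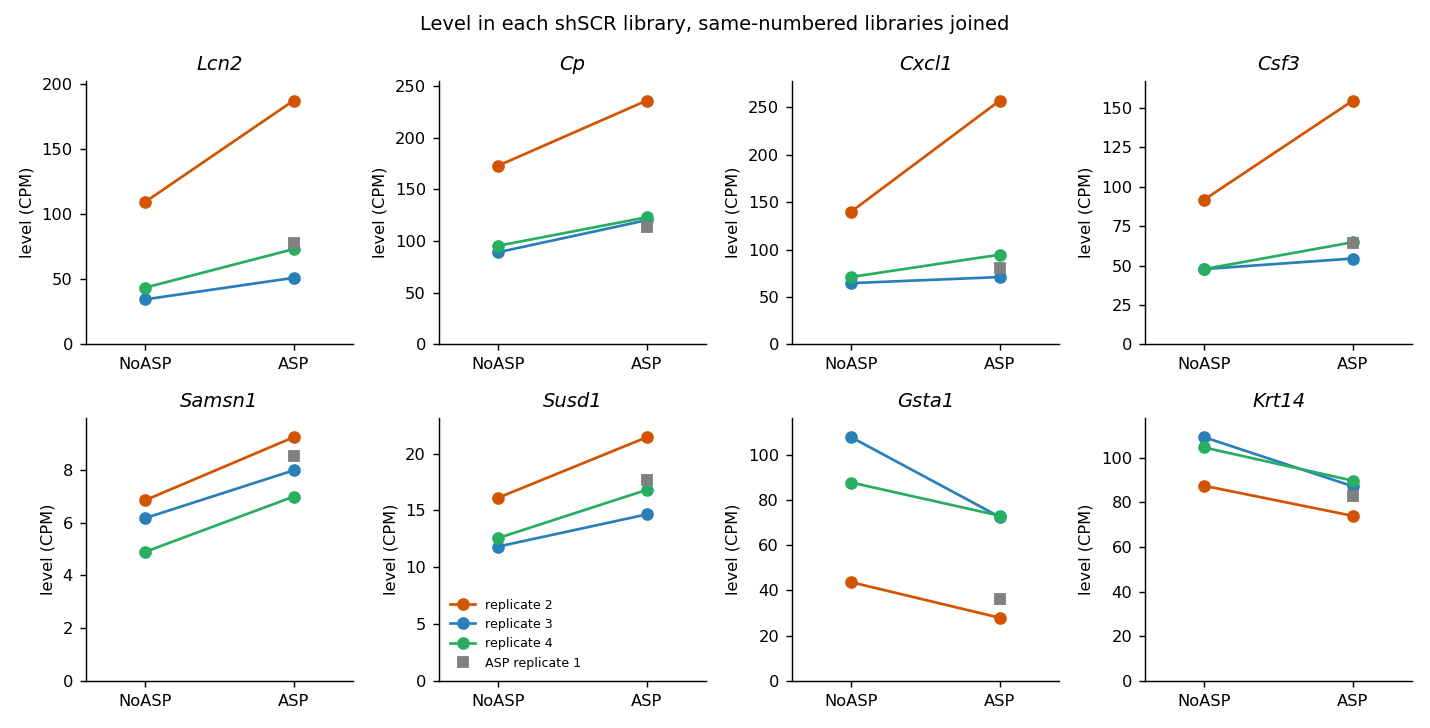
CPM of 8 genes in each library (y axes start at 0), with same-numbered NoASP and ASP libraries joined and ASP replicate 1, which has no partner, as a square. For *Lcn2*, *Cp*, *Cxcl1* and *Csf3* the replicate 2 line lies far above the others, and all lines rise; for *Gsta1* and *Krt14* all lines fall.

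Genes that move or use aspartate showed no difference that passed the test. Of 11 genes for aspartate and glutamate transport, 7 were in the table and 5 had at least 5 CPM. The plasma-membrane transporters *Slc1a2* and *Slc1a7* had at most 3 and 4 counts in a library, and *Slc1a1*, *Slc1a3* and *Slc1a6* were not analysed here. *Slc1a5*, the neutral amino acid exchanger ASCT2, was at 67.9, 42.3, 70.0 and 66.8 CPM with aspartate and 49.7, 79.4 and 72.6 CPM without (log2 fold change -0.12, -0.44 to 0.19). *Slc25a22*, a mitochondrial glutamate carrier, had -0.27 (-0.60 to 0.07) and was lower in each pair. The transaminases that make aspartate were near 0: *Got1* had 0.01 (-0.18 to 0.20) and *Got2* -0.06 (-0.25 to 0.12). *Asns*, which converts aspartate to asparagine, had 0.04 (-0.20 to 0.29). Of 13 aspartate enzymes at this level, 2 were higher and 2 lower in all 3 pairs, shares of 15.4% each beside 12.4% and 13% of all genes, with a median of -0.02.

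The list of 18 other enzymes of purine and pyrimidine synthesis leaves out those that use aspartate itself. Of these, 8 (44.4%, beside 13% of all genes) were lower in all 3 pairs and 0 higher. In pair 2, 18 of 18 were lower, and the median ratios were -0.13, -0.06 and -0.02. In pairs 3 and 4 alone, 8 were lower in both and 3 higher in both, beside 2430 and 2272 of all 10233 genes. The differences were small, and the unblocked median was -0.04, with each of the 18 intervals inside 1.5-fold. *Pfas*, which acts in purine synthesis, had ratios of -0.13, -0.13 and -0.47, and *Rrm2*, a subunit of ribonucleotide reductase, -0.21, -0.10 and -0.10. The median turned to 0.04 when ASP replicate 2 was left out and to 0.03 without NoASP replicate 3.

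The receptor and its downstream kinases were measured at unequal depth. *Grin2d*, the NMDA receptor subunit the study silences in other groups, was at 3.32, 3.23, 3.68 and 4.16 CPM with aspartate and 3.05, 4.85 and 6.95 CPM without (53 to 125 counts a library; log2 fold change -0.47, -1.01 to 0.08). *Grin1* and *Grin3b* had at most 1 and 3 counts, and the other subunits were not analysed here. Of the 26 genes from calcium to CREB, 22 had at least 5 CPM and the intervals of all 22 lay inside 1.5-fold. *Creb1* had -0.02 (-0.26 to 0.21), 3 of the 22 were higher in all pairs and 0 lower. *Atf1*, a CREB relative, had 0.11 (-0.09 to 0.31) and *Camk2g*, a calmodulin-dependent kinase, 0.06 (-0.14 to 0.25). Immediate-early genes, which calcium and CREB can induce, showed no common direction. Their median ratio was 0.19, -0.05 and -0.16 in pairs 2, 3 and 4. *Egr2* (0.35, -0.07 to 0.76) and *Junb* (0.12, -0.17 to 0.41) were higher in each pair, and *Atf3* (-0.30, -0.68 to 0.08) lower.

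The messages of the hypusination enzymes were tightly bounded. *Dohh* was at 49.1, 36.8, 47.6 and 40.9 CPM with aspartate and 40.4, 47.2 and 47.0 CPM without, and its log2 fold change was -0.04 (-0.26 to 0.19). By quantitative PCR, the paper reports a rise of *Dohh* message with aspartate in spheroids of this line. Here a rise past 0.19 on the log2 scale lies outside the interval, though the measure differs. *Dhps* had -0.10 (-0.41 to 0.22), with pair ratios of 0.31, -0.24 and -0.31. *Eif5a* was at 937 to 1271 CPM with aspartate and 991 to 1328 CPM without, a log2 fold change of 0.01 (-0.21 to 0.24). Of 14 polyamine genes, which supply the spermidine for hypusine, 1 was higher in all pairs (*Azin2*) and 3 lower, and the 14 intervals lay inside 1.5-fold. *Odc1*, the rate-limiting enzyme, had 0.04 (-0.19 to 0.26), and *Amd1*, which makes the aminopropyl donor, -0.09 (-0.39 to 0.20). The 42 translation factors also lay inside 1.5-fold throughout, with 4 higher and 6 lower in all pairs and a median of 0.01. Of 21 tRNA charging enzymes, 5 (23.8%, beside 13% of all genes) were lower in all pairs, including *Rars* (-0.10) and *Wars* (-0.10), and 1, *Dars*, was higher.

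Cytosolic ribosomal protein genes had the highest median log2 fold change of the lists with more than 1 member at 5 CPM, 0.14, and all 79 values were above 0, between 0.03 and 0.27. Much of this came from 2 libraries: without ASP replicate 1 the median was 0.07, and without NoASP replicate 4 it was 0.06. The median ratio was -0.01 in pair 2, -0.04 in pair 3 and 0.29 in pair 4, where all 79 were higher. Relative to the mean of the 7 libraries, the list stood at 0.27 in ASP replicate 1 and at -0.26 in NoASP replicate 4, and between -0.04 and 0.06 in the other 5. Of the 79, 10 were higher in all pairs (12.7%), near the 12.4% of all genes, and each interval lay inside 1.5-fold. *Rpl37a* had 0.26 (0.02 to 0.51) and *Fau* 0.20 (-0.01 to 0.42). Whether the ribosomal protein genes had a part in the enrichment of translation gene sets that the paper reports was not tested.

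TGF-β and collagen genes, the output of the study's model, had no called member in the unblocked fit. *Ltbp2*, a member of the latent TGF-β binding protein family that is on both the pathway and the response list, was called in the unfiltered edgeR fit within the pairs (log2 fold change 0.43, adjusted p = 0.00056), with ratios of 0.47, 0.73 and 0.06, and not after filtering. It was named after its values were seen. Of 17 genes of the pathway at 5 CPM, 4 were higher and 1 lower in all pairs, and the median was -0.01. *Tgfb1*, the ligand, was at 151, 149, 137 and 143 CPM with aspartate and 147, 141 and 158 CPM without (-0.03, -0.35 to 0.28). Of 18 response genes, 6 (33.3%, beside 12.4% of all genes) were higher in all pairs and 2 lower. Their pair medians were 0.11, 0.10 and -0.05, but the unblocked median was -0.03. *Skil*, *Smad7* and *Ltbp2* are on both the pathway and the response list, so the 2 counts are not separate results. The Hallmark set TGF-β signaling had 14 of 49 (28.6%) higher and 3 lower, with a median of 0.02. The feedback inhibitors *Skil* (0.27, 0.15 and 0.19) and *Smad7* (0.12, 0.11 and 0.42) were higher in each pair, and *Ccn2*, a matricellular target, lower (-0.16, -0.19 and -0.18). Among 9 collagen chains at this level, *Col8a1* and *Col7a1* were higher in all pairs and *Col4a2* and *Col6a1* lower. *Col6a1* was at 44.7, 48.3, 45.8 and 47.7 CPM with aspartate and 53.6, 49.0 and 49.0 CPM without, with no overlap, yet its log2 fold change was -0.12 (-0.42 to 0.18). *Col1a1* was near the floor at 0.15 to 1.28 CPM, and *Col1a2* and *Col3a1* were not analysed here. The paper reports, by quantitative PCR, a rise of *Col1a1* message with aspartate in spheroids of this line. Here the log2 fold change of *Col1a1* was -0.29 (-1.56 to 0.99), an interval too wide to decide on such a rise. Of 15 enzymes that process collagen, 2 were higher in all pairs and 0 lower; *P4ha2*, a prolyl hydroxylase, was at 21.2 and 14.1 CPM in the replicate 2 libraries and 2.95 to 5.49 CPM in the others.

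Neutrophil chemokines and NF-κB targets leaned higher with aspartate, mostly in pair 2. The list was chosen with earlier results of these data known, so no enrichment is read from its shares. Of 34 genes in the table, 22 had at least 5 CPM, and 9 of these (40.9%, beside 12.4% of all genes) were higher in all 3 pairs and 0 lower, with a median log2 fold change of 0.12. All 22 were higher in pair 2, where the median ratio was 0.37, against 0.04 and 0.05 in pairs 3 and 4. In pairs 3 and 4, 12 and 14 of the 22 were higher. In pairs 3 and 4 alone, 9 were higher in both and 5 lower in both, beside 2272 and 2430 of all 10233 genes. *Cxcl1* was at 80.0, 257, 70.9 and 94.6 CPM with aspartate and 140, 64.5 and 71.0 without, and *Csf3*, which encodes the granulocyte growth factor G-CSF, at 64.3, 155, 54.4 and 64.8 against 91.9, 47.8 and 47.8. Replicate 2 was the highest library in each group. The unblocked fold changes were 0.45 (-0.21 to 1.12) for *Cxcl1* and 0.44 (-0.13 to 1.01) for *Csf3*. With the block within the pairs both were called in edgeR before filtering (adjusted p = 3.71e-08 and 1.16e-06) and not after it (adjusted p = 0.22 and 0.13). Without ASP replicate 2 the median of the list was -0.11, *Cxcl1* was at -0.17 and *Csf3* at -0.03; without NoASP replicate 2 they were 0.28, 0.89 and 0.82. The median was also 0.03 without NoASP replicate 3 and 0.07 without NoASP replicate 4.

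Hypoxia genes followed the replicate number more than aspartate. Relative to the mean of the 7 libraries, the median of 21 genes stood at 0.92 in ASP replicate 2 and 0.46 in NoASP replicate 2, and between -0.35 and -0.22 in the other 5. The pair ratios were 0.46, -0.08 and 0.06. *Ankrd37*, a direct target of the hypoxia-inducible factors, was at 3.85, 26.3, 3.38 and 2.75 CPM with aspartate and 16.9, 2.80 and 2.06 CPM without, and *Car9*, a surface carbonic anhydrase, at 25.4, 45.6, 28.9 and 31.3 against 36.9, 24.9 and 25.2. Both were higher in each pair, as were 5 of the 21 (23.8%, beside 12.4% of all genes), and *Ankzf1* was lower. Glycolytic enzymes followed the same order (0.45 and 0.20 in the replicate 2 libraries, -0.18 to -0.03 in the others), with *Pfkl* at 417 CPM in ASP replicate 2, 328 CPM in NoASP replicate 2 and 202 to 216 CPM elsewhere. The hypoxia median, 0.11 over all libraries, was -0.31 without ASP replicate 2, 0.39 without NoASP replicate 2, 0.01 without NoASP replicate 3, -0.05 without NoASP replicate 4 and -0.00 with both replicate 2 libraries left out. Whether the state of the replicate 2 spheroids had a part in the aspartate ratios of pair 2 was not tested.

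**Figure D4:**
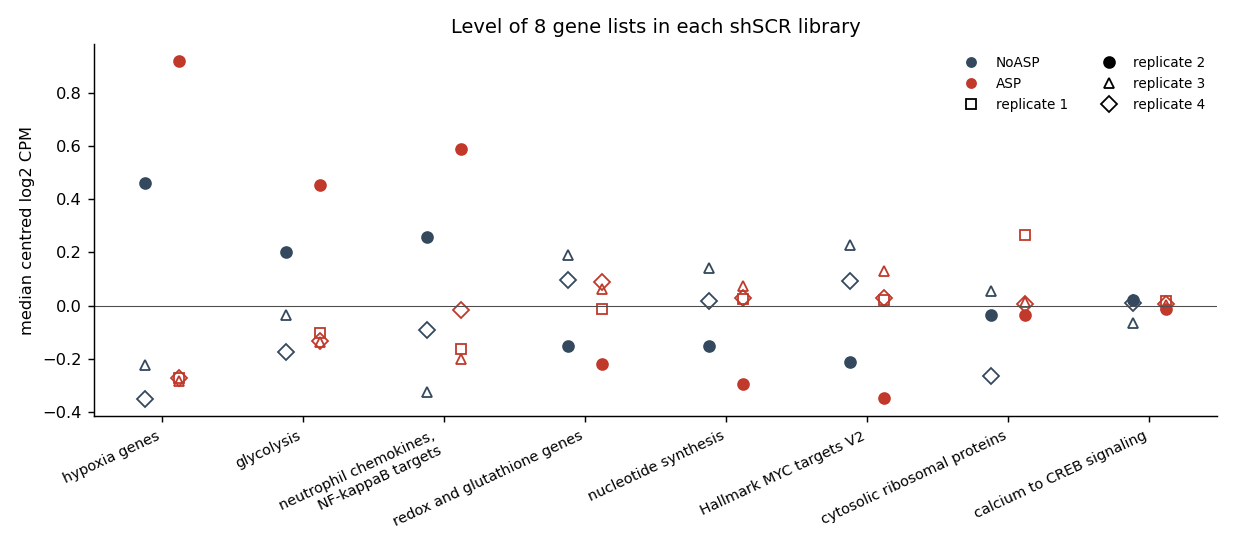
Median centred log2 CPM of 8 gene lists in each of the 7 libraries (NoASP dark blue, ASP red; the marker gives the replicate number, filled for replicate 2). In the first 3 lists both replicate 2 libraries lie highest and in the next 3 lowest, with ASP replicate 2 the more extreme in all 6, whereas calcium to CREB genes lie near 0 in every library.

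Of the 57 measured genes of the Hallmark set MYC targets V2, mostly nucleolar and ribosome-assembly genes, 30 (52.6%, beside 13% of all genes) were lower in all 3 pairs and 2 higher. The median ratios were small and alike: -0.11, -0.10 and -0.08 in pairs 2, 3 and 4. Leaving pair 2 aside, 32 were lower in both other pairs and 4 higher, beside 2430 and 2272 of all 10233 genes. *Rrp12* was at 26.8, 19.4, 30.6 and 30.0 CPM with aspartate and 23.6, 38.1 and 36.3 without (log2 fold change -0.29, -0.62 to 0.04), and *Map3k6*, a stress kinase, had -0.32 (-0.71 to 0.07). *Cdk4*, a cell cycle kinase, and *Sord*, sorbitol dehydrogenase, were the 2 higher, by 0.01 and 0.00 in their smallest pair. The groups overlapped for all 57, and the unblocked median was -0.08. The list was lowest in both replicate 2 libraries, at -0.35 and -0.21 relative to the mean. MYC targets V1, a larger set of 201, had 37 lower (18.4%) and 5 higher, with pair medians of -0.06, -0.05 and 0.02.

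Of 28 redox and glutathione genes, 11 (39.3%, beside 13% of all genes) were lower in all pairs and 0 higher. The pair medians were -0.09, -0.12 and -0.02. In both of pairs 3 and 4, 13 were lower and 1 higher, beside 2430 and 2272 of all 10233 genes. Beside *Gsta1*, *Gclm*, the regulatory subunit of the enzyme that limits glutathione synthesis, was at 132, 104, 166 and 163 CPM with aspartate and 113, 188 and 191 CPM without, with ratios of -0.12, -0.18 and -0.23. Its unblocked log2 fold change was -0.22 (-0.54 to 0.11). The list's unblocked median was -0.03, -0.14 without NoASP replicate 2 and -0.01 without ASP replicate 2 or without NoASP replicate 3.

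**Figure D5:**
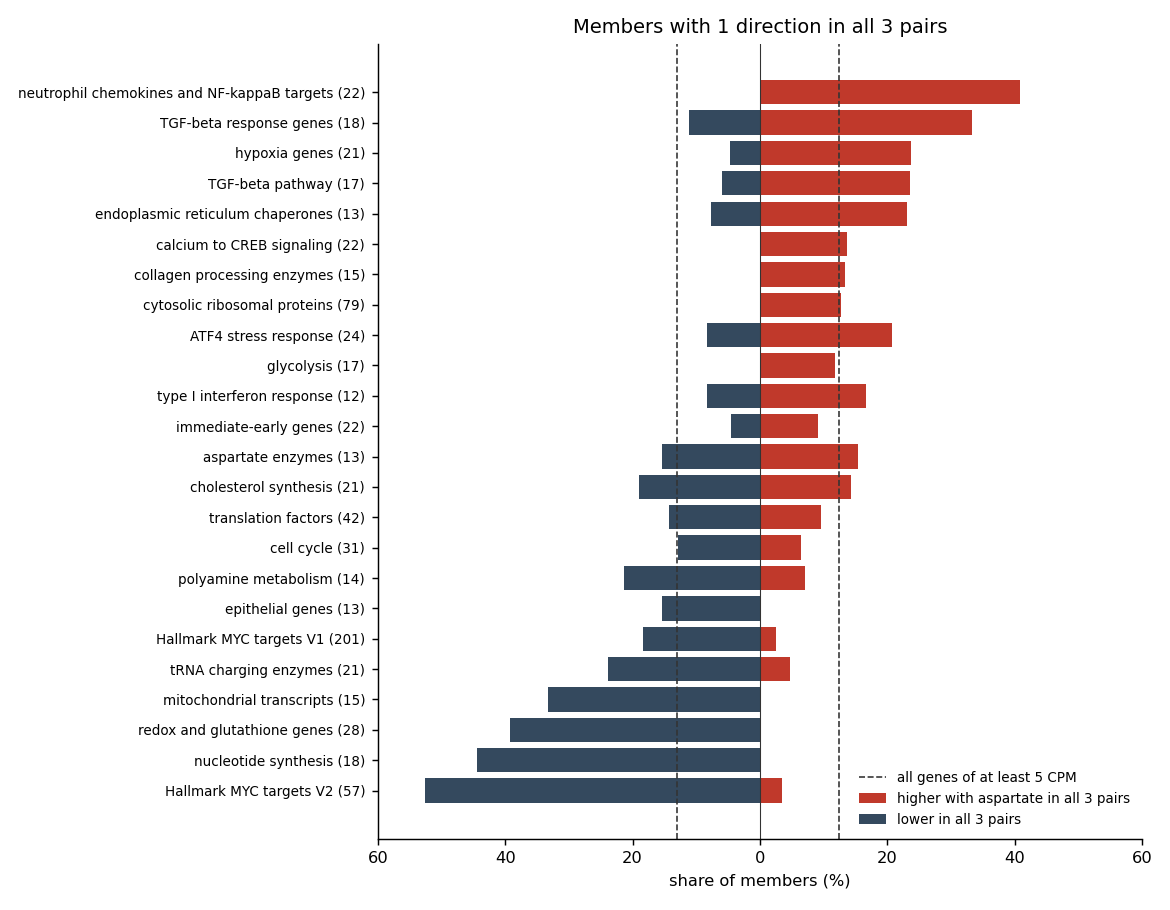
Share of each list's members of at least 5 CPM (number in brackets) that were higher (red, right) or lower (dark blue, left) with aspartate in all 3 same-numbered pairs, with dashed lines at the share of all 10233 genes (12.4% and 13%). Neutrophil chemokines and NF-κB targets reach 40.9% on the higher side, and MYC targets V2, nucleotide synthesis and redox genes 52.6%, 44.4% and 39.3% on the lower side. The lists were chosen with earlier results of these data known, so no enrichment is read from the shares.

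Of 24 genes of the ATF4 stress response, 5 (20.8%, beside 12.4% of all genes) were higher and 2 lower in all pairs, with a median of 0.04. *Atf4* had 0.02 (-0.19 to 0.24), and *Ddit4*, a stress-induced inhibitor of mTORC1, was at 308 CPM in ASP replicate 2, 248 CPM in NoASP replicate 2 and 94.3 to 127 CPM in the others. *Nupr1* was higher in each pair (0.23, 0.15 and 0.39) and the glycine transporter *Slc6a9* lower (-0.07, -0.22 and -0.25). Of 13 endoplasmic reticulum chaperones, 3 (23.1%, beside 12.4% of all genes) were higher in all pairs and 1 lower. The median was 0.06, with *Xbp1* at 0.20 (-0.03 to 0.42) and *Calr* at -0.04 (-0.35 to 0.28). Of 31 cell cycle genes, 2 (*Bub1b* and *Cenpe*) were higher and 4 lower in all pairs, *E2f1* (-0.08) and *Cdt1* (-0.09) among them, and all 31 intervals lay inside 1.5-fold. Cholesterol synthesis had 3 of 21 higher and 4 lower, and all 21 intervals inside 1.5-fold. Of 12 interferon response genes, *Oasl2* and *Gbp2* were higher in all pairs and *Ifih1*, a sensor of double-stranded RNA, lower (-0.31, -0.62 to 0.00). Epithelial genes had 0 of 13 higher and 2 lower, *Krt14* and *Ovol1*, and among 7 mesenchymal genes *Vim* (-0.10) and *Twist1* (0.03 overall) were lower in each pair. *Malat1* and *Neat1*, RNAs kept in the nucleus and here a sign of how far nuclei were carried over, had -0.38 and -0.51, and their list summed to 119 to 287 CPM with aspartate and 159 to 372 CPM without. Both were slightly higher in pair 2 and lower in pairs 3 and 4, and their part in the other results was not tested. Of 15 mitochondrial transcripts, 5 (33.3%, beside 13% of all genes) were lower in all pairs and 0 higher, with a median of -0.07. The 50 Hallmark sets had medians from -0.08 to 0.04 and no called member in the unblocked fit, and 6 of them had pair medians of one sign in all 3 pairs.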

How the data were processed

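Stranded mRNA libraries from the cytosolic lysate of 4T1 spheroids were sequenced by the authors. Per the labels, their processing notes name Trim Galore 0.6.6, FastQC 0.11.9, STAR 2.6.1, Salmon 1.4.0 and DESeq2 1.34.0 and the build GRCm39. The deposited table holds counts per gene, which the authors rounded from Salmon's estimates with a filter on genes of little expression. The authors' tables of fold changes and gene set scores were not used. Gene lists and the members described were chosen with earlier results of these data known, so no enrichment is read from the shares of their members.

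The comparison was tested in edgeR 4.0.16 (quasi-likelihood, TMM) on all 14 libraries with group as the only term and Benjamini-Hochberg adjustment over 19525 genes, run in R 4.3.3. Per the methods, the libraries were made from the input of polysome profiling on independent spheroid pellets, and p-values measure the spread between these. Intervals are 95% Wald intervals with the fit's t quantile. Ratios within pairs are differences of log2 CPM with a prior count of 2. CPM are TMM-scaled, and comparisons of levels between genes are not made. The replicate numbers were taken as pairs because the departures from group means of the ASP and NoASP library with one number correlated at 0.59, 0.30 and 0.23 over 10233 genes for numbers 2, 3 and 4. Libraries of different numbers were not compared in this way. Both replicate 2 libraries stood apart and enter the group means, so this check cannot settle the pairing of numbers 3 and 4. No library was a duplicate: between replicates chi-square per degree of freedom was 10.8 or more. Permutation of 4 against 3 libraries cannot go below a two-sided p of 0.057, and of 3 pairs below 0.25, so none was run. Alternatives used DESeq2 1.42.0 and limma 3.58.1. The unblocked edgeR fit and the blocked edgeR fit within the pairs, with and without filtering, were run on simulated counts. The other fits were not. That simulation held no replicate effect, so it cannot show how the blocked fits handle one.

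Genes were named by rule: at least 5 CPM, no predicted models or pseudogenes, the 8 with the largest and the 8 with the most negative smallest ratio over the pairs, the 5 smallest p in each direction, up to 2 members of each list in each direction, and genes fixed by role in the pathway. Further genes were named after their values were seen: the examples of MYC targets V2, *Lars2*, *Ltbp2*, *Gm49388*, *Gm20458*, *Gm22317*, *Bnip3*, *Ero1a*, *Malat1*, *Neat1*, marker genes and receptor or transporter genes with few counts. Promoter sequences come from RefSeq's GRCm38.p6 table; coordinates were not converted.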

Additional observations from a re-analysis of the deposited data

Results flagged for a closer look

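In the 4 ASP libraries, 14 of the 104 named genes had 1 library far from the other 3 by Dixon's ratio at its 95% critical value, a limit that chance passes in about 1 in 20 groups. The library was ASP shSCR replicate 2 for all 14. It was the highest for *Cp* (236 CPM, next 123), *Vcam1* (79.4, next 24.6), *Csf3* (155, next 64.8), *Cxcl1* (257, next 94.6), *Junb* (417, next 276), *Ddit4* (308, next 127), *Col8a1* (105, next 62.4), *P4ha2* (21.2, next 5.49), *Ankrd37* (26.3, next 3.85), *Pfkm* (33.6, next 23.1) and *Pfkl* (417, next 216). It was the lowest for *Slc1a5* (42.3 CPM, next 66.8), *Rrm2* (161, next 235) and *Eif5a* (937, next 1245). NoASP replicate 2 was the extreme library of its own group in the same direction for all 14.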

How the results depend on the processing

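The unblocked count of 0 calls was the same with DESeq2, other scalings, filterByExpr, the robust prior, a test against 1.5-fold, the 7 shSCR libraries alone and both replicate 2 libraries left out. Leaving out 1 library gave 0 to 1 calls, the 1 without NoASP replicate 3. The replicate block gave 2 calls over 14 libraries, 64 over the 7 shSCR libraries and 67 within the pairs, and 49, 56 and 97 without pair 2, 3 or 4. Blocked fits added after the data were seen gave 2 (filterByExpr), 41 (robust prior), 48 (DESeq2, 14 libraries), 3 (DESeq2, pairs), 2 (voom) and 5 (limma trend). Of the 587 listed genes that were measured, 0 were called without the block. With it, 11 were called over the 7 shSCR libraries, 12 within the pairs, and 3, 14 and 19 without pair 2, 3 or 4. The counts over all 19525 genes in these fits were 64, 67, 49, 56 and 97. The lists were chosen with earlier results of these data known, so no enrichment is read from these counts. Counts of intervals inside 1.5-fold and 2-fold stayed within 1.5 times of the main counts. Counting all genes raised those of one direction in 3 pairs from 2594 to 4129. Of 2701 values of the 104 named genes under the alternatives, 53 newly passed the threshold, all in fits with the block. Signs of uncalled genes did turn, for 26 of the 104 without ASP replicate 2. Of 494 list medians, 54 moved by more than the replicate spread. Depth limits the rest: below 1 CPM no interval lay inside 1.5-fold.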
